A study of Mus musculus with 40 samples.

Results

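Mt1 and Mt2, the metallothionein genes that muscle shares with most tissues, were measured together with 4 genes of zinc handling, Slc39a14, Slc30a1, Slc30a2 and Mtf1, in the extensor digitorum longus (EDL), a fast hindlimb muscle of the mouse. These 6 genes were taken by symbol from the deposited gene tables, which list 22844 genes, and all 6 were among the 13543 genes expressed highly enough to be tested. The 8 groups held 5 muscles each, with 1 library per muscle. All mice were of the strain Tsc1tm1Djk/J and were 3 or 9 months old. CON mice were Tsc1fl/fl littermates that carried no Cre, and TSCmKO mice lacked Tsc1, an inhibitor of the growth kinase complex mTORC1, in muscle fibers. The Cre driver is not given in the sources used here. Vehicle or the mTORC1 inhibitor rapamycin (RM) was injected intraperitoneally for 3 days, giving 3mCON, 3mCON+RM, 3mTSCmKO, 3mTSCmKO+RM, 9mCON, 9mCON+RM, 9mTSCmKO and 9mTSCmKO+RM. The labels state 4 mg/kg for rapamycin, but a higher daily dose stands in the study's own account of the treated 9-month TSCmKO mice, so the dose was uncertain.

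Metallothioneins are small cysteine-rich proteins that bind zinc and copper and buffer their free concentrations. Their genes are textbook targets of the zinc-sensing transcription factor MTF1, which binds short metal response elements in promoters, and they are also known to respond to glucocorticoids, inflammatory cytokines and oxidants. Zinc enters the cytosol through ZIP proteins, the Slc39a family, of which ZIP14 (Slc39a14) is induced by inflammation and also carries iron and manganese. It leaves the cytosol through ZnT proteins, the Slc30a family, of which ZnT1 (Slc30a1) exports zinc across the plasma membrane and is itself an MTF1 target, while ZnT2 (Slc30a2) loads zinc into vesicles.

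The metallothionein pair lies side by side on the plus strand of chromosome 8. In the GENCODE M21 annotation of GRCm38, Mt2 (ENSMUSG00000031762) occupies bases 94172664 to 94173568 and Mt1 (ENSMUSG00000031765) bases 94179082 to 94180327, leaving 5513 bases between them. Slc39a14 (ENSMUSG00000022094) lies on the minus strand of chromosome 14 at 70303469 to 70351425. Slc30a1 (ENSMUSG00000037434) lies on chromosome 1 at 191906767 to 191913247, and Slc30a2 (ENSMUSG00000028836) and Mtf1 (ENSMUSG00000028890) on chromosome 4 at 134343181 to 134354484 and 124802104 to 124849800, all on the plus strand. All 6 are annotated as protein-coding, and reads assigned to them fell in exons of their transcripts. Short reads could be told apart well at these genes. Mt1 and Mt2 shared no stretch of 31 bases with each other, 0.524% of such stretches in Mt2 and 0.585% in Slc39a14 recurred in other genes of the table, and those of Mt1, Slc30a1, Slc30a2 and Mtf1 did not.

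The upstream sequences of Mt1 and Mt2 are shown because these genes moved together in the muscles. The windows are the 250 bases before the RefSeq start (GRCm38.p6, plus strand), at chr8:94178839-94179088 for Mt1 and chr8:94172368-94172617 for Mt2, with the metal response element cores TGCACNC and TGCGCNC (searched on both strands, N being any base) in capitals.
Mt1: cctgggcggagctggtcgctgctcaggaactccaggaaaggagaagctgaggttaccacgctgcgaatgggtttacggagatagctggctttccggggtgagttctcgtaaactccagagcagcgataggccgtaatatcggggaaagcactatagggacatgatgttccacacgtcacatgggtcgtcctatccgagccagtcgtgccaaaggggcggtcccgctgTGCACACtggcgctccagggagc
Mt2: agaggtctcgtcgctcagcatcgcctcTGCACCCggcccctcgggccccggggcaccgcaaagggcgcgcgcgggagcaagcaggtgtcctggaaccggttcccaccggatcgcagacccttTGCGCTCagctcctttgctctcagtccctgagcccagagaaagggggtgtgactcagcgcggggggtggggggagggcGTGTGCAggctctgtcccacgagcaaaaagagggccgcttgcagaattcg
The Mt1 window held 1 core and the Mt2 window 3 cores. Of 32851 RefSeq promoters, 21.4% held at least 1 such core, 5.18% held 2 or more and 1.26% held 3 or more. The antioxidant response core TGACNNNGC was found once in the Mt2 window and in 10.2% of all promoters. RefSeq and GENCODE starts differ, so that the Mt1 window runs slightly past the GENCODE start at 94179082, while the Mt2 window ends before that at 94172664. GENCODE also places Mt1 transcripts with starts at 94179211 and 94179241. The first exon of the longest Mt1 transcript (94179082 to 94179338) held 4 further cores, and that of Mt2 (94172664 to 94172875) held 3. Such matches describe the letters only.

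The libraries held 8883870 to 35224669 counts each. Tsc1 was at 17.7 to 35.8 CPM (counts scaled to a common library size by the TMM method) in the 20 TSCmKO libraries and at 51.3 to 134 CPM in the 20 CON libraries, so each library matched its genotype. Genes of muscle fibers (Acta1, Ckm, Mylpf, Tnnt3, Pvalb, Myh4 and Myh1) summed to 123421 to 177432 TPM (length-scaled transcript abundance) in all libraries, as a fast muscle would give. In 9mTSCmKO this sum was 123421 to 135758 TPM against 158457 to 177432 TPM in 9mCON, and its part in the results was not tested. Since whole muscles were measured, fewer cells of a type and less RNA per cell cannot be told apart. Library inserts measured 175 to 239 nt at 3 months and mostly more, 223 to 308 nt, in the 9-month muscles, and a fit with insert size as a term was run beside each comparison. Nothing but sample numbers marks the replicates in the labels, and p-values measure the spread between these muscles.

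The metallothioneins were highest in 9mTSCmKO muscle, where Mt1 was 4.14-fold and Mt2 10.4-fold above 9mCON. At 3 months the TSCmKO and CON muscles overlapped for both genes, and at 9 months rapamycin lowered Mt1 in TSCmKO. Among the transporters, Slc39a14 and Slc30a2 were lower in 9mTSCmKO than in 9mCON, and rapamycin lowered Slc30a2 in TSCmKO at both ages. Slc30a1 passed no test, and the Mtf1 mRNA passed only that of rapamycin in 3mTSCmKO. At 9 months the genotype comparison called 4 of the 6 genes, 2 higher and 2 lower, at an adjusted p under 0.05, where 37.9% of all tested genes were called.

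**Figure D1:**
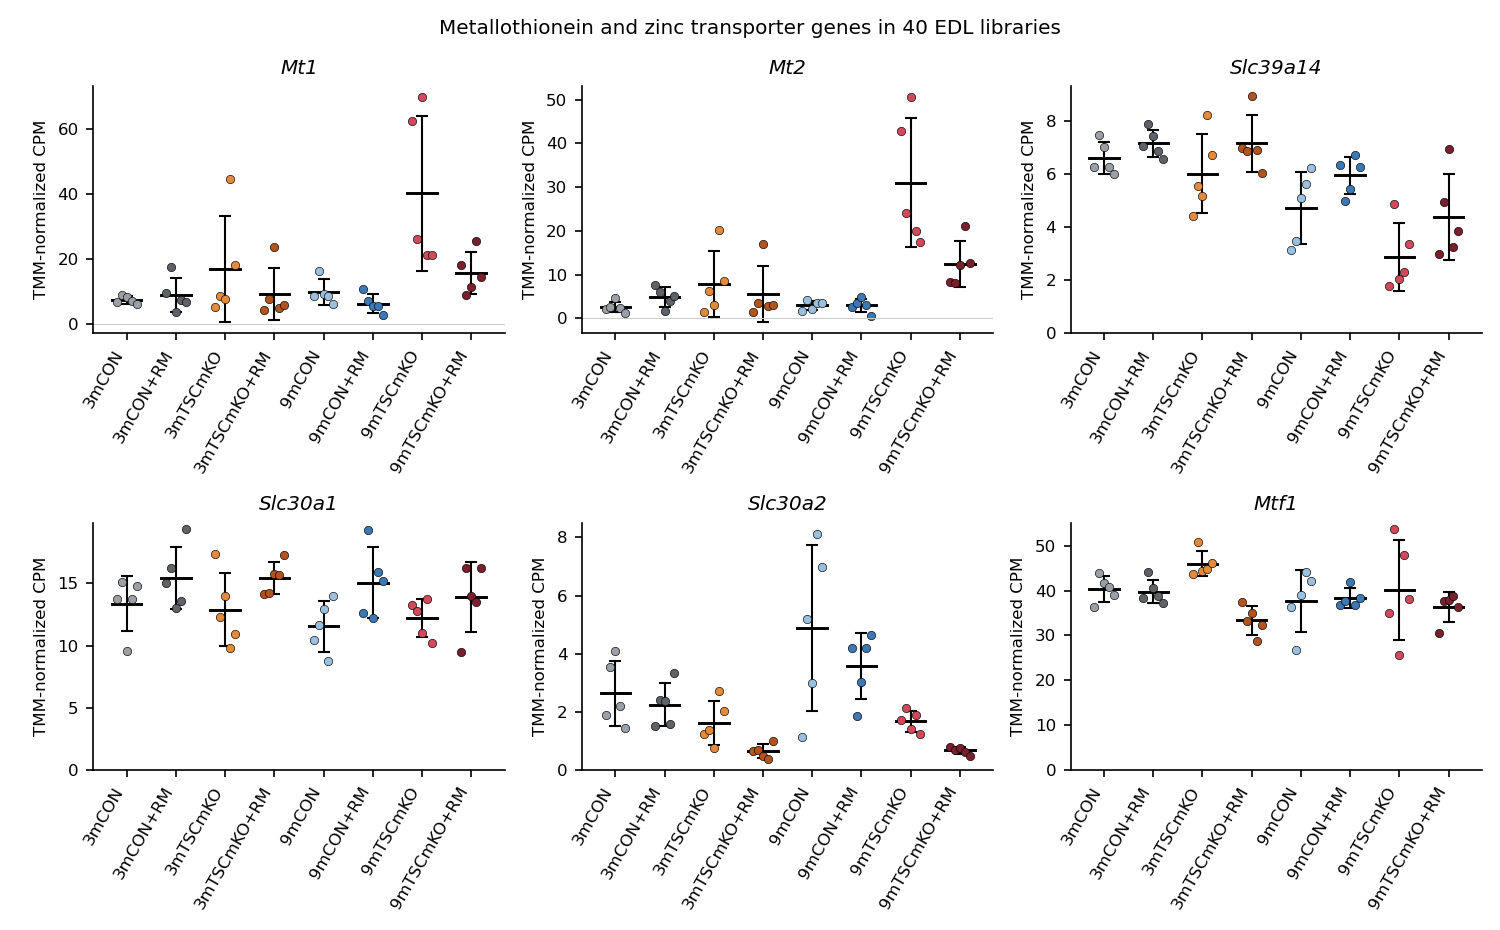
Expression of each gene in TMM-normalized CPM (vertical axes, from 0 or just below where the error bar crosses 0) in the 8 groups (horizontal axes), with 1 point per library, a line at the mean and bars of 1 SD (n = 5). The 5 libraries of 9mTSCmKO lie above all 9mCON libraries for Mt1 and Mt2, and the 5 of 9mTSCmKO+RM lie below all those of 9mTSCmKO for Slc30a2.

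Mt1 was expressed at 8.44, 16.4, 9.17, 8.67 and 6.14 CPM in the 5 muscles of 9mCON. In 9mTSCmKO it reached 62.5, 26.0, 69.8, 21.2 and 21.2 CPM. The groups did not overlap, and replicates 1 and 3 of 9mTSCmKO stood well above the other 3. The same replicates also had the highest sums of adipocyte genes (Adipoq, Plin1, Cidec, Lep and Fabp4) in their group, at 1280 and 846 TPM against 413 to 512 TPM, and the part of these in the metallothionein values was not tested. Their means were 9.75 ± 3.87 and 40.1 ± 24.0 CPM (SD, n = 5), which is 2.05 on the log2 scale (SE 0.51, adjusted p = 0.0019). With any single library left out, this difference ranged from 1.76 to 2.31 and passed the threshold each time. In 9mTSCmKO+RM, Mt1 was at 18.1, 8.92, 11.4, 25.3 and 14.4 CPM, so that 1 treated muscle overlapped the untreated range. Rapamycin lowered Mt1 there (log2 fold change -1.36, SE 0.50, adjusted p = 0.033). That call was fragile. It was lost without 9mTSCmKO replicate 1 or 3, or without 9mTSCmKO+RM replicate 2, 3 or 5, when adjusted p reached at most 0.114. It was also lost with no low-count filter (adjusted p = 0.063) and with insert size as a term (adjusted p = 0.064).

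Mt2 was at 1.71, 4.07, 2.11, 3.44 and 3.46 CPM in 9mCON and at 42.8, 24.0, 50.6, 20.01 and 17.5 CPM in 9mTSCmKO. The same replicates 1 and 3 were highest, and again no muscle overlapped. Its mean rose from 2.96 ± 0.999 to 30.98 ± 14.8 CPM, a log2 difference of 3.38 (SE 0.59, adjusted p = 2.59e-05). Under rapamycin the 9mTSCmKO+RM muscles held 8.29, 8.002, 12.1, 21.0 and 12.7 CPM, and replicate 4 lay above 2 of the untreated muscles. Mt2 in them was still above 9mCON, without overlap (log2 fold change 2.06, SE 0.58, adjusted p = 0.0064), and above 9mCON+RM, again without overlap (2.09, SE 0.59, adjusted p = 0.0091). Both calls held with each library left out. Markers of other cell types moved in these 2 comparisons, as given for Slc30a2 below, and their part in the Mt2 values was not tested. The difference from 9mTSCmKO was -1.32 on the log2 scale (SE 0.53), and its adjusted p of 0.053 missed the threshold. It passed when only the 2 groups compared were fitted, and without 9mTSCmKO replicate 4 or 5 or 9mTSCmKO+RM replicate 4, with adjusted p between 0.011 and 0.043.

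Counted together as 1 gene, an analysis added after the data had been seen, Mt1 and Mt2 were 2.49 higher on the log2 scale in 9mTSCmKO than in 9mCON (SE 0.53, adjusted p = 0.00034). Rapamycin lowered that sum in 9mTSCmKO (log2 fold change -1.34, SE 0.50, adjusted p = 0.038). Against 9mCON the treated muscles were then 1.15 higher (SE 0.52, adjusted p = 0.089), which missed the threshold, and against 9mCON+RM they were 1.62 higher (SE 0.53, adjusted p = 0.026), which passed. Of Mt1 alone, 9mTSCmKO+RM differed from 9mCON by 0.68 (SE 0.51, adjusted p = 0.33) and from 9mCON+RM by 1.32 (SE 0.53, adjusted p = 0.071). The latter passed with DESeq2 (adjusted p = 0.042), with the compared groups only (0.010), in both limma fits (0.016 and 0.014) and without 9mCON+RM replicate 1 (0.047).

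At 3 months the genotype comparison called 1 of the 6 genes, Mt2, against 19.8% of all tested genes. Mt2 was at 2.07, 2.64, 4.58, 2.38 and 1.18 CPM in 3mCON and at 1.45, 6.13, 2.93, 20.3 and 8.48 CPM in 3mTSCmKO. The groups overlapped, and most of the difference came from replicates 4 and 5. The log2 fold change was 1.61 (SE 0.58, adjusted p = 0.047). Without 3mTSCmKO replicate 4 it was 0.86, and 7 of the 10 fits without 1 muscle gave no call, nor did 5 of the alternative fits. Mt1 was at 6.66, 8.91, 8.34, 7.02 and 5.99 CPM in 3mCON and at 5.13, 8.48, 7.65, 44.6 and 17.9 CPM in 3mTSCmKO. It was again the fourth and the fifth library that were high, and the difference of 1.21 (SE 0.51, adjusted p = 0.095) missed the threshold. In 3mTSCmKO replicate 4 the neutrophil genes S100a8, S100a9 and Mpo summed to 116 TPM, against 0.0421 to 17.7 TPM in the other 39 libraries. In replicate 5 they summed to 1.801 TPM. In replicate 3 the sum was 17.7 TPM, and in the rest of the group 1.80 to 6.09 TPM. S100a9, the 1 of these genes that was tested, was itself higher in 3mTSCmKO (4.29, SE 0.86, adjusted p = 0.00030). It was not tested again without replicate 4. Replicate 4 also had the highest Schwann cell sum of all libraries, at 219.7 TPM against 62.5 to 107 TPM in the rest of its group. The next highest was 214 TPM in 3mCON replicate 3, where Mt1 was at 8.34 and Mt2 at 4.58 CPM. The adipocyte sum of 3mTSCmKO replicate 4 was 927 TPM, against 324 to 475 TPM in the rest of its group. The part of these transcripts in the metallothionein values was not tested.

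One muscle also stood out in 3mTSCmKO+RM, where Mt1 was at 4.21, 7.72, 23.5, 4.94 and 5.69 CPM and Mt2 at 1.48, 3.40, 17.0, 2.78 and 3.02 CPM. Replicate 3 was highest for both. Rapamycin in 3mTSCmKO changed Mt1 by -0.90 (SE 0.50, adjusted p = 0.21) and Mt2 by -0.56 (SE 0.54, adjusted p = 0.51), neither past the threshold. Without that muscle both passed, at -1.59 for Mt1 (adjusted p = 0.020) and -1.59 for Mt2 (adjusted p = 0.027). Its neutrophil genes summed to 2.32 TPM, and its macrophage genes to 143 TPM, the highest of all libraries, against 72.3 to 139 TPM in the rest of its group. Their part in its metallothionein values was not tested.

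In the treated control muscles Mt1 ranged from 3.48 to 17.5 CPM in 3mCON+RM and from 2.63 to 10.6 CPM in 9mCON+RM, and Mt2 from 1.57 to 7.55 and from 0.607 to 4.92 CPM. In CON, rapamycin called 0 of the 6 genes at 9 months, where 11.8% of all tested genes were called, and 0 at 3 months, where 0.679% were. At an unadjusted p under 0.05 there was 1 gene at 9 months, Slc30a1, and 0 at 3 months, and DESeq2 also called 0 at each age. Age in CON called 0 of the 6 against 1.02% of all genes, with 2 below an unadjusted 0.05, Slc39a14 and Slc30a2, and 0 by DESeq2.

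TSCmKO muscles of the 2 ages, which also differed in insert size, were compared next. Between 3mTSCmKO and 9mTSCmKO, 3 of the 6 genes passed, against 37.4% of all tested genes. Mt2 was 1.94 higher at 9 months (SE 0.54, adjusted p = 0.0049), a call that was lost in no fit. Mt1 was 1.24 higher (SE 0.49, adjusted p = 0.046), which did not pass in 6 of the 10 fits without 1 muscle. It was also lost with insert size as a term (adjusted p = 0.28) and with the compared groups only (adjusted p = 0.14). The same held with no low-count filter (adjusted p = 0.080) and with the replicate number as a term. With insert size as a term Mt2 was just past the threshold (2.40, SE 0.82, adjusted p = 0.0497). Without 3mTSCmKO replicate 4, the Mt1 difference was 2.04 (adjusted p = 0.0014). Slc39a14 was lower (-1.08, SE 0.22, adjusted p = 0.00025). The test of whether the genotype effect itself differed between the ages called 0 of the 6 genes, against 4.94% of all tested genes, and 0 by DESeq2. Mt2 alone had an unadjusted p under 0.05, with an interaction of 1.78 (SE 0.81, adjusted p = 0.22). Without 3mTSCmKO replicate 4 that interaction was 2.54 (adjusted p = 0.046). Markers of other cell types moved in the same comparison of ages in TSCmKO, with 4 of 5 adipocyte, 4 of 5 erythroid, 4 of 6 fibroblast, 3 of 5 tendon and 3 of 5 endothelial markers lower at 9 months, as was S100a9 (-3.36, SE 0.78, adjusted p = 0.0010). There 1 tendon, 1 macrophage and 1 Schwann cell marker were higher, and 1 macrophage and 2 of 7 muscle fiber markers were lower. The adipocyte sum nevertheless had a higher mean in 9mTSCmKO than in 3mTSCmKO (706 against 525 TPM). The erythroid sum was 28731 TPM in 3mTSCmKO replicate 3, against 1383 to 2847 TPM in its other muscles and 816 to 3350 TPM in 9mTSCmKO. The neutrophil genes, S100a9 among them, summed to 116 TPM in 3mTSCmKO replicate 4 and to at most 17.7 TPM in the rest of that group. The part of these markers in the 3 calls was not tested.

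Mt1 and Mt2 followed each other from muscle to muscle. Over the 40 libraries their log2 CPM correlated with Pearson's r of 0.90 and Spearman's rho of 0.83, and after the group means were removed with r of 0.85 and rho of 0.78. These points share library and depth, and the values are a description. Their proportion is given as a ratio. The ratio of Mt2 to Mt1 in TPM, which allows for transcript length, had a median of 0.294 in 9mCON and a range of 0.235 to 0.649. In 9mTSCmKO it had a median of 0.984, ranging from 0.791 to 1.10, without overlap. The median was 1.05 in 9mTSCmKO+RM, 0.362 in 3mCON and 0.545 in 3mTSCmKO. On the ratio of counts, a 2-sided exact permutation test chosen after the data had been seen gave a 2.66-fold difference between 9mTSCmKO and 9mCON (p = 0.00794, the smallest that 5 against 5 allows). Adjusted over the 12 pairs of groups compared, p was 0.0635 and did not pass. Rapamycin in 9mTSCmKO left a ratio of 0.978 times the untreated one (exact p = 0.913).

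**Figure D2:**
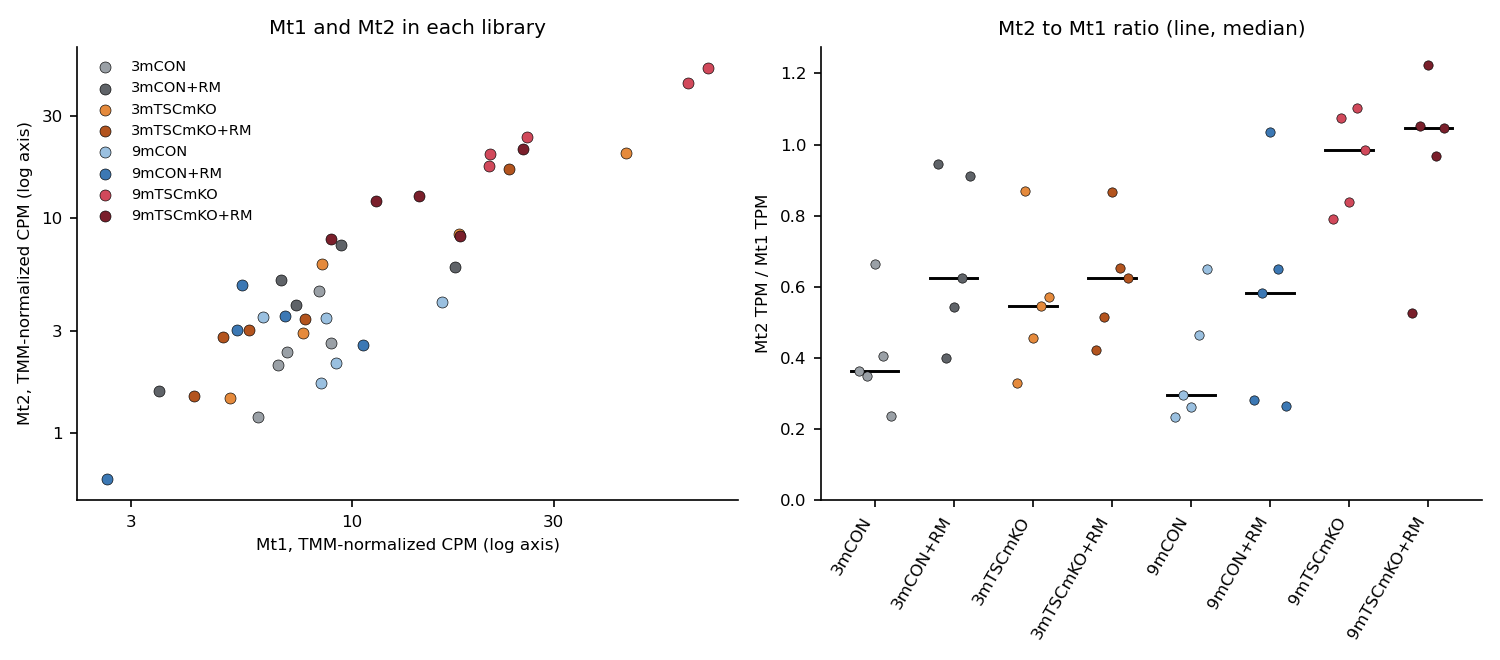
Left, Mt2 against Mt1 in TMM-normalized CPM on log axes, 1 point per library, colored by group. Right, the ratio of Mt2 TPM to Mt1 TPM in each library of the 8 groups, with a line at the median (n = 5), which was 0.294 in 9mCON and 0.984 in 9mTSCmKO.

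Mt3, the metallothionein best known from brain, moved with its neighbors. It was at 0.807 ± 0.307 CPM in 9mCON and 11.98 ± 3.98 CPM in 9mTSCmKO (log2 fold change 3.88, SE 0.43, adjusted p = 3.26e-09). Rapamycin brought Mt3 to 3.03 ± 1.20 CPM in 9mTSCmKO+RM. At 3 months Mt3 was at 0.679 ± 0.317 CPM in 3mCON and 1.41 ± 0.691 CPM in 3mTSCmKO (0.98, SE 0.44, adjusted p = 0.12). Unlike for Mt1 and Mt2, the interaction of genotype with age passed for Mt3 (2.90, SE 0.62, adjusted p = 0.0039). Mt4, a metallothionein of stratified epithelium, had at most 1 count in any library and was not tested. All 3 tested metallothioneins were higher in 9mTSCmKO than in 9mCON, where 37.9% of all tested genes were called. Of these, Mt1 and Mt2 are the pair described above. Mt3 averaged 0.395 to 0.807 CPM in the CON groups, so it met the filter of 1 CPM mainly through TSCmKO muscles, where it was high. The 3 calls are therefore a description and no further support.

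**Figure D3:**
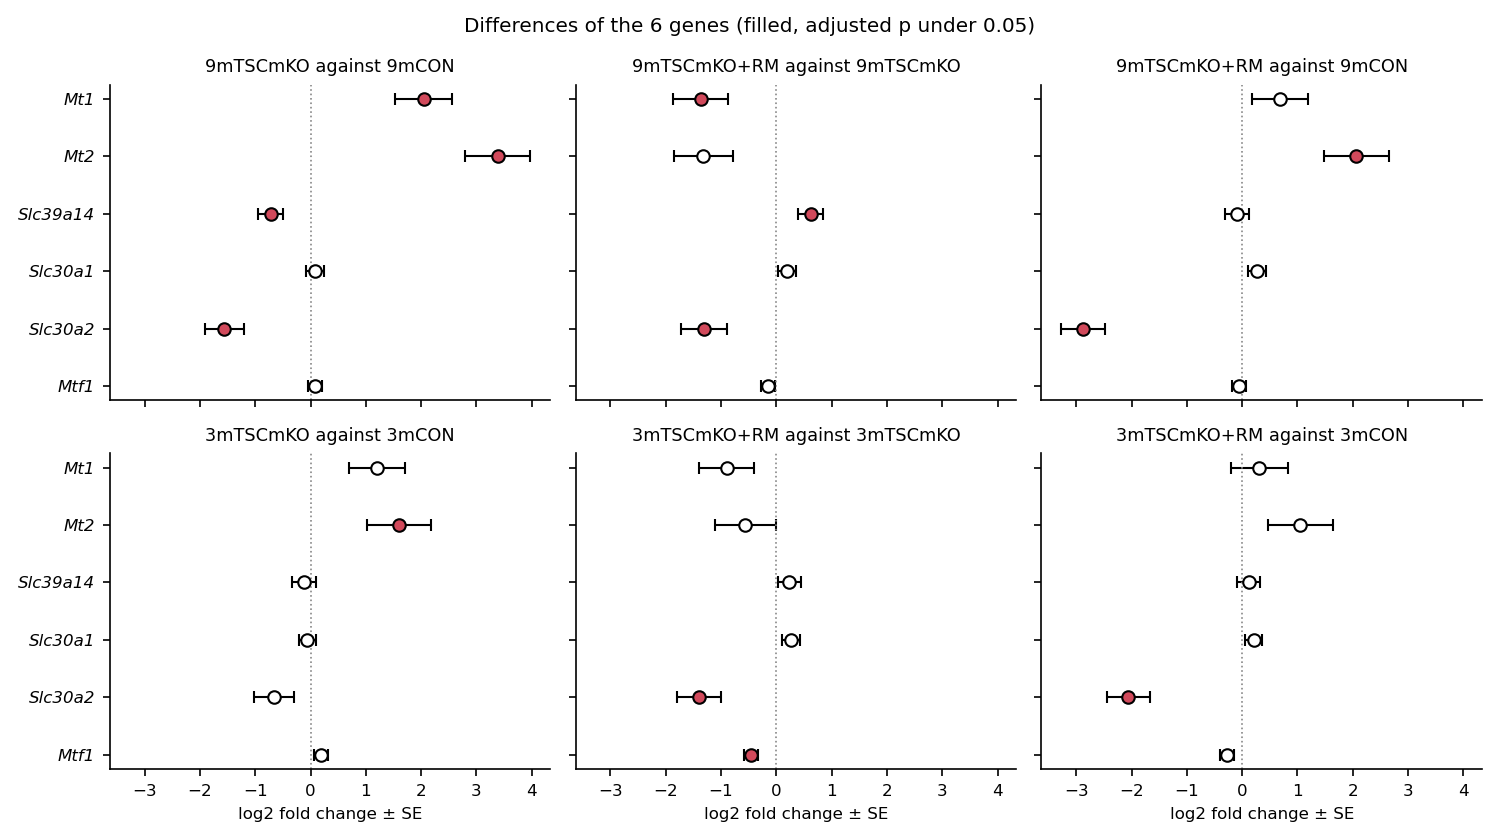
Log2 fold changes (horizontal axes) of the 6 genes (vertical axes) with bars of 1 SE in 6 comparisons, 9 months above and 3 months below, filled where adjusted p was under 0.05. Mt1 and Mt2 lie at 2.05 and 3.38 in 9mTSCmKO against 9mCON, and Slc30a2 lies left of 0 in each of the 6 panels.

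Slc39a14 was at 3.13, 3.47, 5.11, 5.62 and 6.24 CPM in 9mCON, and at 1.77, 4.88, 2.06, 2.31 and 3.37 CPM in 9mTSCmKO. The groups overlapped, although 3 of the 5 TSCmKO muscles lay below every control. Its log2 fold change was -0.72 (SE 0.22, adjusted p = 0.011), a call lost without 9mCON replicate 5 (adjusted p = 0.060) and when only these groups were fitted (0.12). Replicates 1 and 3 of 9mTSCmKO, highest for Mt1 and Mt2, were the lowest for Slc39a14. Over the 40 libraries with the group means removed, Slc39a14 correlated with Mt1 at r of -0.008 and with Mt2 at r of 0.18. Rapamycin raised Slc39a14 in 9mTSCmKO+RM to 2.97, 4.95, 6.95, 3.24 and 3.84 CPM, 0.62 higher on the log2 scale (SE 0.23, adjusted p = 0.031), with overlapping groups. That call was lost without any 1 of 9mTSCmKO replicates 1, 3 and 4 and 9mTSCmKO+RM replicates 2 and 3, the last of which gave 0.39 (adjusted p = 0.20). It was lost as well with the compared groups only (adjusted p = 0.19) and in both limma fits on TPM (adjusted p = 0.097 and 0.11). At 3 months it ran from 4.41 to 8.94 CPM over the 4 groups and passed no test between them.

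Slc30a2 had 8 to 149 counts per library, and at 9 months it was lower both with the TSCmKO genotype and with rapamycin in TSCmKO. In 9mCON it was at 1.12, 5.20, 3.00, 8.13 and 6.97 CPM, and replicate 1 lay below every muscle of 9mTSCmKO, which were at 1.71, 2.12, 1.39, 1.903 and 1.22 CPM. The genotype difference was -1.56 (SE 0.35, adjusted p = 0.00056). In 9mTSCmKO+RM it was at 0.782, 0.691, 0.761, 0.620 and 0.487 CPM, below every muscle of 9mTSCmKO and of 9mCON. Rapamycin in 9mTSCmKO changed it by -1.31 (SE 0.41, adjusted p = 0.014), in a comparison that called 3 of the 6 genes against 32.6% of all tested genes. With limma on log2(TPM + 1) the change in Slc30a2 was -0.54 (adjusted p = 0.067). Treated TSCmKO muscle was below 9mCON without overlap (log2 fold change -2.87, SE 0.40, adjusted p = 4.73e-07). In the same comparison 5 of 6 fibroblast, 4 of 6 macrophage and 3 of 5 tendon markers were also lower, with median log2 fold changes of -1.15, -1.04 and -2.67, and their part in the Slc30a2 value was not tested. There 2 of the 6 genes were called, Mt2 higher and Slc30a2 lower, against 31.9% of all tested genes.

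The 3-month values of Slc30a2 had the same order. It was at 1.902, 3.54, 4.09, 2.20 and 1.43 CPM in 3mCON, at 1.25, 1.37, 0.770, 2.72 and 2.01 CPM in 3mTSCmKO, and at 0.648, 0.671, 0.485, 0.392 and 1.01 CPM in 3mTSCmKO+RM. The untreated genotypes overlapped and differed by -0.66 (SE 0.35, adjusted p = 0.20), which missed the threshold. Rapamycin in 3mTSCmKO lowered it (-1.40, SE 0.40, adjusted p = 0.0082), and without 3mTSCmKO replicate 4 adjusted p was 0.053, and with limma on log2(TPM + 1) the change was -0.51 (adjusted p = 0.11). Rapamycin also moved markers in TSCmKO, and their part in the Slc30a2 values was not tested. At 3 months 2 of 6 macrophage, 1 of 6 fibroblast, 1 of 5 tendon and 3 of 7 muscle fiber markers were higher. There 1 muscle fiber marker and S100a9 were lower. The neutrophil genes, S100a9 among them, summed to 116 TPM in 3mTSCmKO replicate 4 and to at most 17.7 TPM in the rest of that group. At 9 months 3 muscle fiber markers and 1 of 3 satellite cell markers were higher, and 1 muscle fiber and 1 of 5 endothelial markers lower. The 3-month comparison of rapamycin in TSCmKO called 2 of the 6 genes, both lower, against 23.6% of all tested genes. Against 3mCON the treated TSCmKO muscles were lower without overlap (-2.06, SE 0.39, adjusted p = 0.00018), and Slc30a2 was the 1 gene of the 6 called, against 16.7% of all tested genes. There 2 of 6 macrophage, 1 of 5 tendon and 1 of 7 muscle fiber markers were higher and 1 muscle fiber marker lower.

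Under rapamycin in both genotypes, Slc30a2 was lower in TSCmKO at each age without overlap, with log2 fold changes of -2.41 at 9 months (SE 0.40, adjusted p = 1.84e-05) and -1.83 at 3 months (SE 0.40, adjusted p = 0.0015). These comparisons called 2 of the 6 genes at 9 months, Mt2 and Slc30a2, against 20.6% of all tested genes, and 1 at 3 months, Slc30a2, against 10%. Markers moved here too. Between the treated genotypes at 9 months 2 of 5 endothelial and 2 of 7 muscle fiber markers were lower in TSCmKO and 1 of 6 macrophage markers higher, and at 3 months 1 of 5 tendon markers was higher. The 9mCON+RM muscles had 6 of 6 fibroblast, 5 of 6 macrophage and 4 of 5 tendon markers lower than 9mCON. The part of these in the Slc30a2 values was not tested. Comparisons that share a group are not independent of each other. In CON muscle Slc30a2 changed with rapamycin by -0.46 at 9 months (SE 0.34, adjusted p = 0.44) and -0.23 at 3 months (SE 0.35, adjusted p = 0.96). The test of whether the rapamycin effect differed by genotype called 0 of the 6 genes at either age, against 4.87% of all tested genes at 9 months and 3.45% at 3 months, and DESeq2 called 0 as well. At an unadjusted p under 0.05 there were 0 genes at 9 months and 2 at 3 months, Slc30a2 (-1.17, SE 0.53, adjusted p = 0.28) and Mtf1 (-0.44, SE 0.18, adjusted p = 0.20).

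Slc30a1, the plasma membrane exporter, was held within 8.78 to 19.4 CPM in all 40 muscles, and its group means lay between 11.6 and 15.4 CPM. In 9mTSCmKO against 9mCON it differed by 0.08 on the log2 scale (95% interval -0.23 to 0.39, adjusted p = 0.74), an interval that leaves out changes of the size seen for Mt1 and Mt2. Its lowest adjusted p in any of the 15 comparisons was 0.12, for rapamycin in 9mCON.

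Mtf1 mRNA, which encodes the zinc sensor, was at 25.6 to 53.8 CPM. It differed by 0.09 between 9mTSCmKO and 9mCON (95% interval -0.16 to 0.33, adjusted p = 0.61). It was at 43.7, 50.8, 44.5, 44.8 and 46.2 CPM in 3mTSCmKO and at 37.5, 33.2, 35.0, 28.7 and 32.3 CPM in 3mTSCmKO+RM, without overlap. Rapamycin lowered it there (-0.46, SE 0.13, adjusted p = 0.0055), and the call was lost in the limma fits on log2(TPM + 0.1) and log2(TPM + 1), which change the values and the test together (adjusted p = 0.15 and 0.13).

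The wider zinc transporter families were counted in 9mTSCmKO against 9mCON, which called 37.9% of all tested genes. Of 14 importer genes (Slc39a1 to Slc39a14), 11 were tested, and 2 were higher, 4 lower and 5 not called, with a median log2 fold change of 0.07 against -0.02 over all tested genes. Of 10 exporter genes (Slc30a1 to Slc30a10), 7 were tested, of which 0 were higher, 2 lower and 5 not called, with a median of -0.05. These lists were written with earlier results of these data known.

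Slc39a3 (ZIP3), a plasma membrane importer, fell from 22.7 CPM in 9mCON to 13.5 CPM in 9mTSCmKO (-0.74, SE 0.11, adjusted p = 1.85e-06) and was at 20.4 CPM in 9mTSCmKO+RM (0.59, SE 0.11, adjusted p = 0.00010). Slc39a6 (ZIP6) did the reverse, at 3.64, 6.07 and 3.52 CPM in the same groups (0.74, SE 0.19, adjusted p = 0.0019, then -0.77, SE 0.19, adjusted p = 0.0015). Slc39a7 (ZIP7), which releases zinc from the endoplasmic reticulum, was higher in 9mTSCmKO by 0.25 (SE 0.08, adjusted p = 0.012) and lowered by rapamycin (-0.35, SE 0.08, adjusted p = 0.00084).

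Slc39a2 was lower in TSCmKO at both ages, with -0.98 at 9 months (SE 0.26, adjusted p = 0.0030) and -1.11 at 3 months (SE 0.27, adjusted p = 0.0024), and rapamycin did not change it past the threshold at 9 months (0.11, SE 0.27, adjusted p = 0.80) or 3 months (0.58, SE 0.27, adjusted p = 0.12). Slc39a9 (-0.34, SE 0.11, adjusted p = 0.013) and the exporter family member Slc30a9 (-0.30, SE 0.10, adjusted p = 0.021) were slightly lower in 9mTSCmKO. Rapamycin in 9mTSCmKO, where 32.6% of all tested genes were called, called 4 importers higher and 3 lower, and 2 exporters lower, Slc30a2 and Slc30a6 (-0.67, SE 0.15, adjusted p = 0.00076). Besides those named, the importers were Slc39a13 (0.41) and Slc39a10 (0.56), which were raised, and Slc39a11 (-0.62), which was lowered. At 3 months the exporter Slc30a4 was higher in 3mTSCmKO by 0.55 (SE 0.18, adjusted p = 0.026) and lowered by rapamycin (-0.65, SE 0.18, adjusted p = 0.0071).

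**Figure D4:**
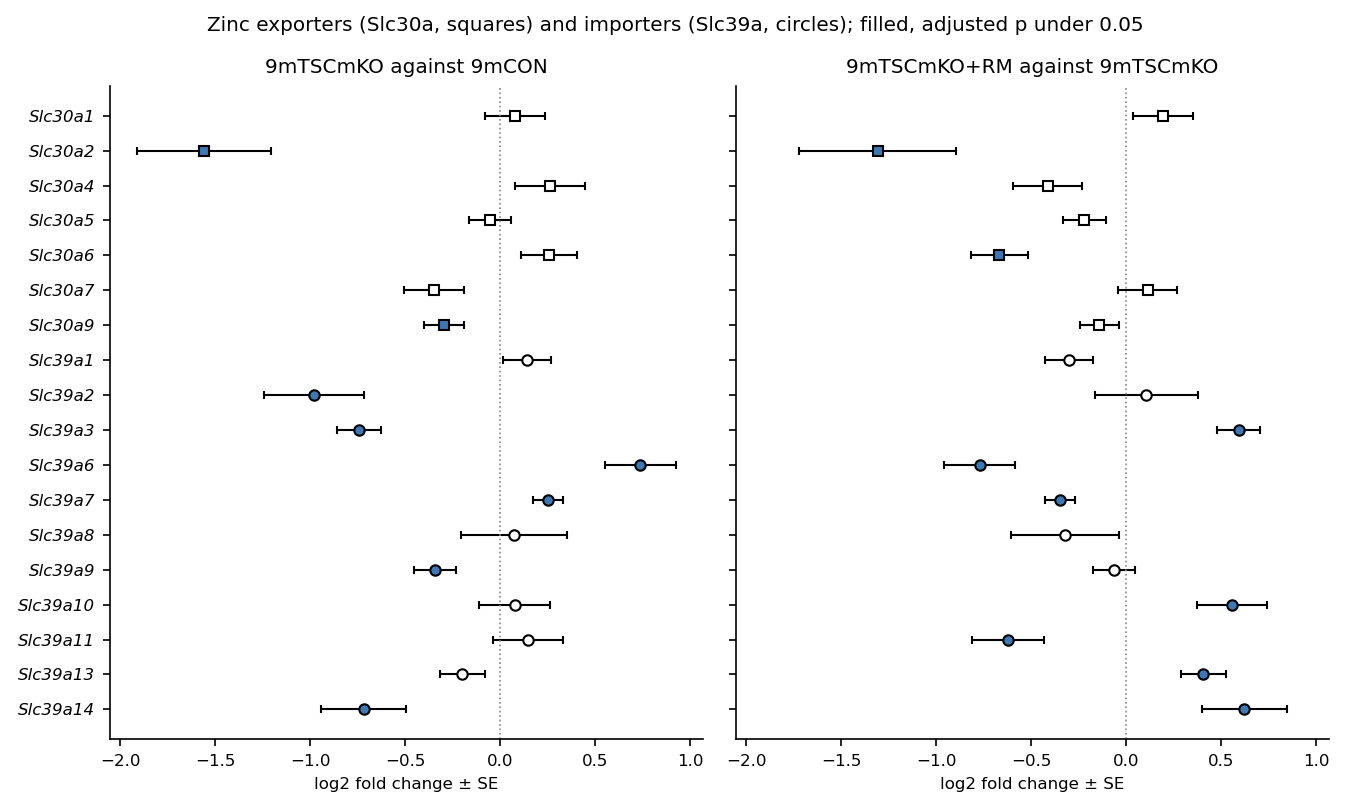
Log2 fold changes with bars of 1 SE (horizontal axes) of the 7 tested exporter genes (squares) and 11 tested importer genes (circles), filled where adjusted p was under 0.05. In the left panel Slc39a3 lies at -0.74 and Slc39a6 at 0.74 for 9mTSCmKO against 9mCON, and in the right panel they lie at 0.59 and -0.77 for rapamycin in 9mTSCmKO.

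Among the other tested genes, those whose log2 CPM most resembled the mean of Mt1 and Mt2 over the 40 libraries were Mt3 (r = 0.84), Srxn1 (r = 0.84), Mettl27 (r = 0.82), Cdkn1a (r = 0.81) and Dcaf12l1 (r = 0.80). Srxn1, which encodes the antioxidant enzyme sulfiredoxin, rose from 26.5 ± 4.96 CPM in 9mCON to 102 ± 22.1 CPM in 9mTSCmKO. Cdkn1a, the cell cycle inhibitor p21, was at 40.3 ± 11.1 and 111 ± 31.9 CPM. With the group means removed the closest were Spsb1 (r = 0.66), Gm20186 (r = 0.65), Il15ra (r = 0.64), Srxn1 (r = 0.63) and Slc10a6 (r = 0.63), so that Srxn1 was the 1 gene on both lists. These likenesses are descriptions over libraries that share depth and grouping.

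Gene lists for the known inducers of metallothioneins were counted in the same comparison, to be read against its 37.9% of all tested genes called. Of 9 tested targets of the antioxidant factor NRF2, 8 were higher in 9mTSCmKO and 0 lower (median log2 fold change 1.002 against -0.02 over all tested genes), led by Nqo1 (1.61, SE 0.16, adjusted p = 1.85e-10), Gclc (1.002, SE 0.11, adjusted p = 2.52e-09), Srxn1 (1.94, SE 0.23, adjusted p = 9.23e-09) and Hmox1 (1.38, SE 0.24, adjusted p = 2e-05). Rapamycin lowered 7 of them in 9mTSCmKO and raised 0, where 32.6% of all tested genes were called. At 3 months 5 of the 9 were higher in 3mTSCmKO and 0 lower, and rapamycin lowered 4 and raised 0. Of 12 tested glucocorticoid-induced genes, 4 were higher and 1 lower, among them Ddit4 (1.73, SE 0.51, adjusted p = 0.0079) and Klf9 (-0.52, SE 0.16, adjusted p = 0.0089). The share of this list that was called is close to the share of all genes. Rapamycin lowered 6 of them in 9mTSCmKO and raised 0. At 3 months, where the genotype comparison called 19.8% of all tested genes and rapamycin 23.6%, 6 of those 12 were higher and 0 lower in 3mTSCmKO, and rapamycin lowered 8 and raised 0.

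The 9 tested genes of the interleukin-6 and STAT3 response had 2 higher and 1 lower, also near the share of all genes, with Timp1 (2.62, SE 0.51, adjusted p = 9.26e-05) above and the shared receptor subunit Il6st (-0.60, SE 0.12, adjusted p = 0.00012) below. Iron handling genes split into 4 higher and 3 lower of 12, to be read, like the copper genes that follow, against 37.9% of all tested genes called. Among them were the exporter ferroportin Slc40a1 at 1.45 (SE 0.18, adjusted p = 2.25e-08) and the ferrireductase Steap3 at -1.21 (SE 0.14, adjusted p = 9.07e-09). Of 11 copper handling genes 2 were higher, Atox1 (0.60, SE 0.22, adjusted p = 0.027) and Sco1 (0.43, SE 0.13, adjusted p = 0.0072), and 1 was lower, Cutc (-0.53, SE 0.14, adjusted p = 0.0028). Rapamycin in 9mTSCmKO raised 1 and lowered 2 of the interleukin-6 list, raised 1 and lowered 4 of the iron list, and raised 2 and lowered 5 of the copper list, where 32.6% of all tested genes were called. Whether any of these groups had a part in the metallothionein values was not tested.

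Markers of other cell types were counted beside these values. In 9mTSCmKO against 9mCON, with 37.9% of all tested genes called, macrophage markers had 1 of 6 higher and 1 lower, fibroblast markers 0 of 6 higher and 4 lower, and tendon markers 0 of 5 higher and 3 lower. Endothelial markers had 2 of 5 lower, adipocyte markers 2 of 5 and Schwann cell markers 1 of 5, with 0 higher in each. The adipocyte sum was nevertheless 413 to 1280 TPM in 9mTSCmKO against 361 to 948 TPM in 9mCON, its mean being higher in 9mTSCmKO (706 against 636 TPM). Erythroid and satellite cell markers had 0 called, as had the 1 tested neutrophil marker. Macrophage markers summed to 53.1 to 77.6 TPM in 9mTSCmKO and 44.8 to 135 TPM in 9mCON, and erythroid markers to 816 to 3350 and 1070 to 21122 TPM. In 9mCON replicate 1, which held the highest erythroid sum of its group, Slc30a2 was at its lowest there. None of these marker sums set 9mTSCmKO above 9mCON without overlap.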

How the data were processed

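Poly(A) RNA of 40 EDL muscles was sequenced by the authors as directional single-end libraries, trimmed with Cutadapt 1.9.1 and assigned to Ensembl transcripts of GRCm38 with kallisto 0.43.1. The deposited values are estimated counts summed per gene and TPM, which the authors scaled by transcript length and library total. Reads matching several transcripts were shared equally. Every value column matched a sample label (0 without one), and the authors' tables held no comparison columns. Groups came from the sample labels.

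Counts were rounded. Genes with 1 CPM in at least 5 libraries (13543 of 22844, which took 99.8% or more of every library) were fitted in edgeR 4.0.16 (R 4.3.3) with TMM factors, 8 group means fitted to the 40 libraries together and its robust quasi-likelihood test, with two-sided p-values adjusted over all tested genes by the Benjamini-Hochberg method at 0.05. There were 12 pairwise comparisons and 3 interactions. Standard errors came from the F-statistics. Alternatives were DESeq2 1.42.0, other scalings, no filter on low counts, the compared groups alone, the replicate number or insert size as a term, limma 3.58.1 on log2(TPM + 0.1) and log2(TPM + 1), and each library left out. The test was checked on simulated data. Low counts, as of Slc30a2, limit precision.

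The genes and lists were chosen with earlier results of these data known. Besides the 6 genes and Tsc1, named genes were zinc transporters past the threshold in 9mTSCmKO against 9mCON, in 3mTSCmKO against 3mCON or with rapamycin in TSCmKO (up to 10 by lowest adjusted p), up to 4 genes of each other list by adjusted p in 9mTSCmKO, and the 5 genes most like Mt1 and Mt2 by either correlation. Further genes were named after their values were seen. Gene coordinates came from GENCODE M21 and promoters from RefSeq. Figures were drawn with matplotlib.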

Additional observations from a re-analysis of the deposited data

Results flagged for a closer look

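Of 48 sets of 5 libraries (6 genes in 8 groups), 3 had a library whose gap to the nearest other exceeded the critical share of the range in Dixon's test, where chance gives about 1 in 20. In 3mTSCmKO+RM replicate 3, Mt1 was at 23.5 CPM, against 4.21 to 7.72 CPM in the other 4 muscles. In the same muscle Mt2 was at 17.0 CPM, against 1.48 to 3.40 CPM. In 3mCON replicate 3, Slc30a1 was at 9.53 CPM, against 13.7 to 15.1 CPM. No interaction passed the threshold for the 6 genes.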

How the results depend on the processing

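Every call of Mt1 and Mt2 between 9mTSCmKO and 9mCON, of Mt2 in 9mTSCmKO+RM against either control group, and of Slc30a2 in 9mTSCmKO against 9mCON and in treated TSCmKO against either control group at each age held in all 9 alternatives and with each compared library left out. The size of the Slc30a2 differences did not hold with limma on log2(TPM + 1), which gave -0.83 in place of -1.56 (9mTSCmKO against 9mCON), -1.11 in place of -2.41 and -0.79 in place of -1.83 (genotype under rapamycin at 9 and 3 months), and -1.37 in place of -2.87 and -0.92 in place of -2.06 (treated TSCmKO against untreated CON at 9 and 3 months). Rapamycin in TSCmKO gave -0.54 in place of -1.31 at 9 months and -0.51 in place of -1.40 at 3 months. No called value changed sign. Of 12 pairwise and 3 interaction counts, those of the following changed by more than 1.5 times. For 3mTSCmKO against 3mCON, the 1 call became 0 with no low-count filter, the compared groups only, insert size as a term and both limma fits, and 0 to 2 with a library left out. For rapamycin in 9mTSCmKO, the 3 calls became 1 with limma on log2(TPM + 1) and 1 to 4 with a library left out. For rapamycin in 3mTSCmKO, the 2 calls became 1 with limma on log2(TPM + 0.1), 0 with limma on log2(TPM + 1), and 1 to 4 with a library left out. With the compared groups only, the calls rose from 1 to 2 for 3mTSCmKO+RM against 3mCON and from 0 to 1, Mtf1, for the rapamycin by genotype interaction at 3 months. The genotype by age interaction gave 0 to 1 with a library left out. The cause of these changes was not tested. With insert size as a term, 9mTSCmKO+RM replicate 5, which has none, was left out.

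Over all tested genes, fitting the compared groups only moved the number called from 5134 to 2710 (9mTSCmKO against 9mCON), 1359 to 2563 (genotype under rapamycin, 3 months), 4410 to 2512 (rapamycin in 9mTSCmKO), 1604 to 580 and 92 to 378 (rapamycin in CON at 9 and 3 months), 2260 to 3740 (3mTSCmKO+RM against 3mCON), 138 to 34 (age in CON), and 669 to 310, 660 to 201 and 467 to 1178 (genotype by age, rapamycin by genotype at 9 and 3 months). DESeq2 gave 181 for rapamycin in 3mCON and 375 for age in CON. No low-count filter gave 38, 83 and 435 for rapamycin in 3mCON, age in CON and the 9-month interaction. Insert size as a term gave 25 for age in CON and 1702, from 5064, for age in TSCmKO, and limma on log2(TPM + 1) gave 215 for age in CON.

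Replicate numbers did not pair the muscles. Of 140 pairs of same-numbered libraries, 34 had deviations that correlated above 0.1, and the correlations ran from -0.42 to 0.51. With the replicate block, 9mTSCmKO against 9mCON still called 4 of the 6 genes, and 5082 genes in all against 5134 without it, and the call of Mt1 between 3mTSCmKO and 9mTSCmKO was lost.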
